A study of Homo sapiens with 12 samples.

Results

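The genes described here are those of the proteasome, the protease that breaks down ubiquitin-tagged proteins, and of its immune form, the immunoproteasome. They were chosen from the count table by symbol, as PSM followed by a letter from A to G and a number, with at least 10 counts in at least 4 libraries. Of the 57773 genes in the table, 50 entries carried such a symbol and 46 passed the count rule. The 4 left out were PSMA8, PSMB11 and a second identifier each for PSMA1 and PSMA2, none of which reached 10 counts in any library. All 46 members were among the 17532 genes tested. By role they are 14 core subunits, 17 cap subunits, 5 immunoproteasome genes and 10 chaperones, other activators and inhibitors.

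RNA was measured by sequencing in A549 cells, an established human lung adenocarcinoma line. The cells were reverse transfected at 50 nM with a non-targeting control siRNA, with siGOLM1-1 or with siGOLM1-2, and harvested 72 h later. Both GOLM1 siRNAs target GOLM1, which encodes a Golgi membrane protein, and each group had 4 libraries labelled as biological replicates. All 3 groups come from 1 line, received the same transfection reagent (Lipofectamine RNAiMAX) and were taken at 1 time, and no untransfected cells or interferon-treated cells were analysed here.

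The core of the proteasome is a barrel of stacked alpha and beta rings, in which the beta subunits PSMB5, PSMB6 and PSMB7 carry the cutting sites. The regulatory cap binds ubiquitin chains, removes them and unfolds the substrate with a ring of ATPases. After interferon signals, PSMB8, PSMB9 and PSMB10 take the places of PSMB5, PSMB6 and PSMB7 in newly built particles, and PSME1 and PSME2 form an activator that opens the core, which together favour peptides fit for presentation on MHC class I.

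Proteasome promoters are known for 2 kinds of short element, so promoter windows of the members were searched for both. Windows of 250 bases before to 50 bases after each RefSeq start (GRCh38.p14) were at hand for 40 of the 46 members; PSMA7, PSMB1, PSMB6, PSMB7, PSMD4 and PSMG3 had none. The form of an interferon response element, 2 copies of GAAA with any 2 bases between them, was searched on both strands. It occurred in 4 of the 5 immunoproteasome genes, in PSMA4, PSMB4 and PSMG4, and in 0 of 16 cap genes. Among all 27305 genes with such windows, 4.38% held it. The sequences below are shown because PSMB8, PSMB10, PSME1, PSME2 and PSMG4 shared the same 10 letters, on one strand or the other. Capitals mark the match, and each runs 5′ to 3′ on the strand of the gene.
PSMB10 (chr16:67936852-67936881, minus strand): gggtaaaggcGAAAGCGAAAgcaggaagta
PSMB8 (chr6:32844032-32844061, minus strand): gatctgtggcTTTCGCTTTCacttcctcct
PSME1 (chr14:24136189-24136218, plus strand): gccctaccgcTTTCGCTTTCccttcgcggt
PSME2 (chr14:24146619-24146648, minus strand): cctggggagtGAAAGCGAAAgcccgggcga
PSMG4 (chr6:3258904-3258933, plus strand): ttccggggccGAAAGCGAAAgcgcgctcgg
The match began at position -21 from the start in PSMB10, -28 in PSME2 and -33 in PSMG4. In PSMB8 it lay at -4 of the second of 2 annotated starts, and in PSME1 it lay at 6, within the transcript. This form was not found in the PSMB9 window.

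The letters TGACNNNGC, the form of an antioxidant response element bound by NFE2L1 and NFE2L2 with their small MAF partners, were found in 15 of the 40 members and in 16.1% of all 27305 genes. They lay in 5 of 16 cap genes, 2 of 10 core genes and 3 of 5 immunoproteasome genes. The matches of the 3 cap genes with values by library below are shown with the same marking. The form also lay in PSMC4, not called in any comparison, and in PSMD3, which fell with siGOLM1-2. Their matches are not shown.
PSMC5 (chr17:63827654-63827682, plus strand): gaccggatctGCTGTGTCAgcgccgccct
PSMD12 (chr17:67366724-67366752, minus strand): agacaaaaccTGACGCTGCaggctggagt
PSMD1 (chr2:231056896-231056916, plus strand): aggaggcgacTGACTGAGCag
Another set of letters, TTCNNNGAA, the form of a gamma-activated site, was found in 7 of 40 members and in 9.38% of all genes; PSMB8 was the immunoproteasome gene among them. A match is a description of the letters and not evidence that a factor binds there.

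Library totals ran from 41.6 M to 71.3 M counts. GOLM1 held 344.5 to 378.1 CPM (the usual count unit per library size, here with the size scaled by its TMM factor) in the control libraries. It held 37.5 to 38.9 CPM with siGOLM1-1 and 44.6 to 53.4 CPM with siGOLM1-2, 9.52-fold and 7.72-fold lower (edgeR adjusted p = 4.97e-12 and 1.57e-11). The epithelial markers KRT8 and KRT18 held at least 1636 and 825.6 CPM in every library, and EPCAM 3.02 to 6.28 CPM. The leukocyte markers summed to 8.67 to 10.3 CPM in control libraries, 12.7 to 20.3 with siGOLM1-1 and 16.8 to 20.3 with siGOLM1-2. They rested mostly on CD14 (6.70 to 15.2 CPM over all libraries) and ITGAM (1.48 to 7.34 CPM). CD79A held 0.40 to 1.72 CPM, and PTPRC and CD3E had at most 2 counts in a library. The epithelial list as a whole summed to 4737 to 6723 CPM in control libraries, 2574 to 3253 with siGOLM1-1 and 5065 to 5295 with siGOLM1-2. The fibroblast list, mostly COL1A1, summed to 32.4 to 70.7, 48.2 to 93.02 and 21.6 to 30.0 CPM, and VWF of the endothelium held at most 0.14 CPM. Some libraries stood apart for the proteasome genes. In siGOLM1-2 replicate 4, 39 of the 46 members were higher than in the other 3 libraries of the group, where 39.6% of all genes tested were. In siGOLM1-1 replicate 2, 30 of 46 were the highest of their group, against 23.9% of all genes. In control replicate 3, 22 of 46 were the highest, against 25.3% of all genes. The lowest of their group were 28 of 46 in siGOLM1-2 replicate 3 and 24 of 46 in siGOLM1-1 replicate 1. The share of all genes that were lowest in a library was not computed.

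Each gene was tested with edgeR's quasi-likelihood test, and calls were made where the p, adjusted by Benjamini-Hochberg over all 17532 genes, was under 0.05. Every adjusted p below is of that test, fold changes are on the log2 scale with their standard error (SE), and each group has n = 4 libraries. Values by library are in CPM, in the order of replicates 1 to 4. Both comparisons with control use the same 4 control libraries, so their values are given side by side and their likeness is no separate evidence. In RNA from a whole culture, a change in the fraction of cells that carry a transcript and a change in its amount per cell cannot be told apart.

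With siGOLM1-1, 7 members rose and 16 fell against control, and 23 were not called. Over all genes tested 47.5% were called, 23.7% higher and 23.8% lower, and the share of members called was 50.0%. With siGOLM1-2, 5 members rose, 19 fell and 22 were not called, a share of 52.2% beside 45% of all genes (21.8% higher, 23.2% lower). Between the siRNAs, 9 members were higher with siGOLM1-2, 12 were lower and 25 were not called, a share of 45.7% beside 54.4% of all genes (26.5% higher, 27.9% lower). The shares called in either direction were not tested against the background, and no excess or lack of called members is read from them. By direction the members were uneven against control: 7 rose and 16 fell with siGOLM1-1, and 5 rose and 19 fell with siGOLM1-2. Over all genes the directions were nearly even. The median log2 fold change of the 46 members was -0.10 with siGOLM1-1 and -0.12 with siGOLM1-2, and that of all genes -0.01 in both. Control and siRNA libraries did not overlap for 5 members above and 15 below the control with siGOLM1-1, and for 6 above and 17 below with siGOLM1-2. Over all genes these shares were 20.6% and 20.4% with siGOLM1-1 (41% in either direction), and 22.6% and 23.3% with siGOLM1-2 (45.9%). Between the siRNAs, 10 members were higher and 8 lower with siGOLM1-2 without overlap, and 48.4% of all genes did not overlap, 24.2% in each direction. Scaling by library totals in place of TMM shifted the median of all genes in the comparison between the siRNAs from -0.01 to 0.12. On that scale 10 members were called higher and 16 lower with siGOLM1-2 against control, and 14 higher and 7 lower with siGOLM1-2 against siGOLM1-1. In the authors' deposited table, 7 members were higher and 16 lower with siGOLM1-1, and 6 higher and 18 lower with siGOLM1-2. The call was the same as here for 44 of 46 members with each siRNA.

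**Figure D1:**
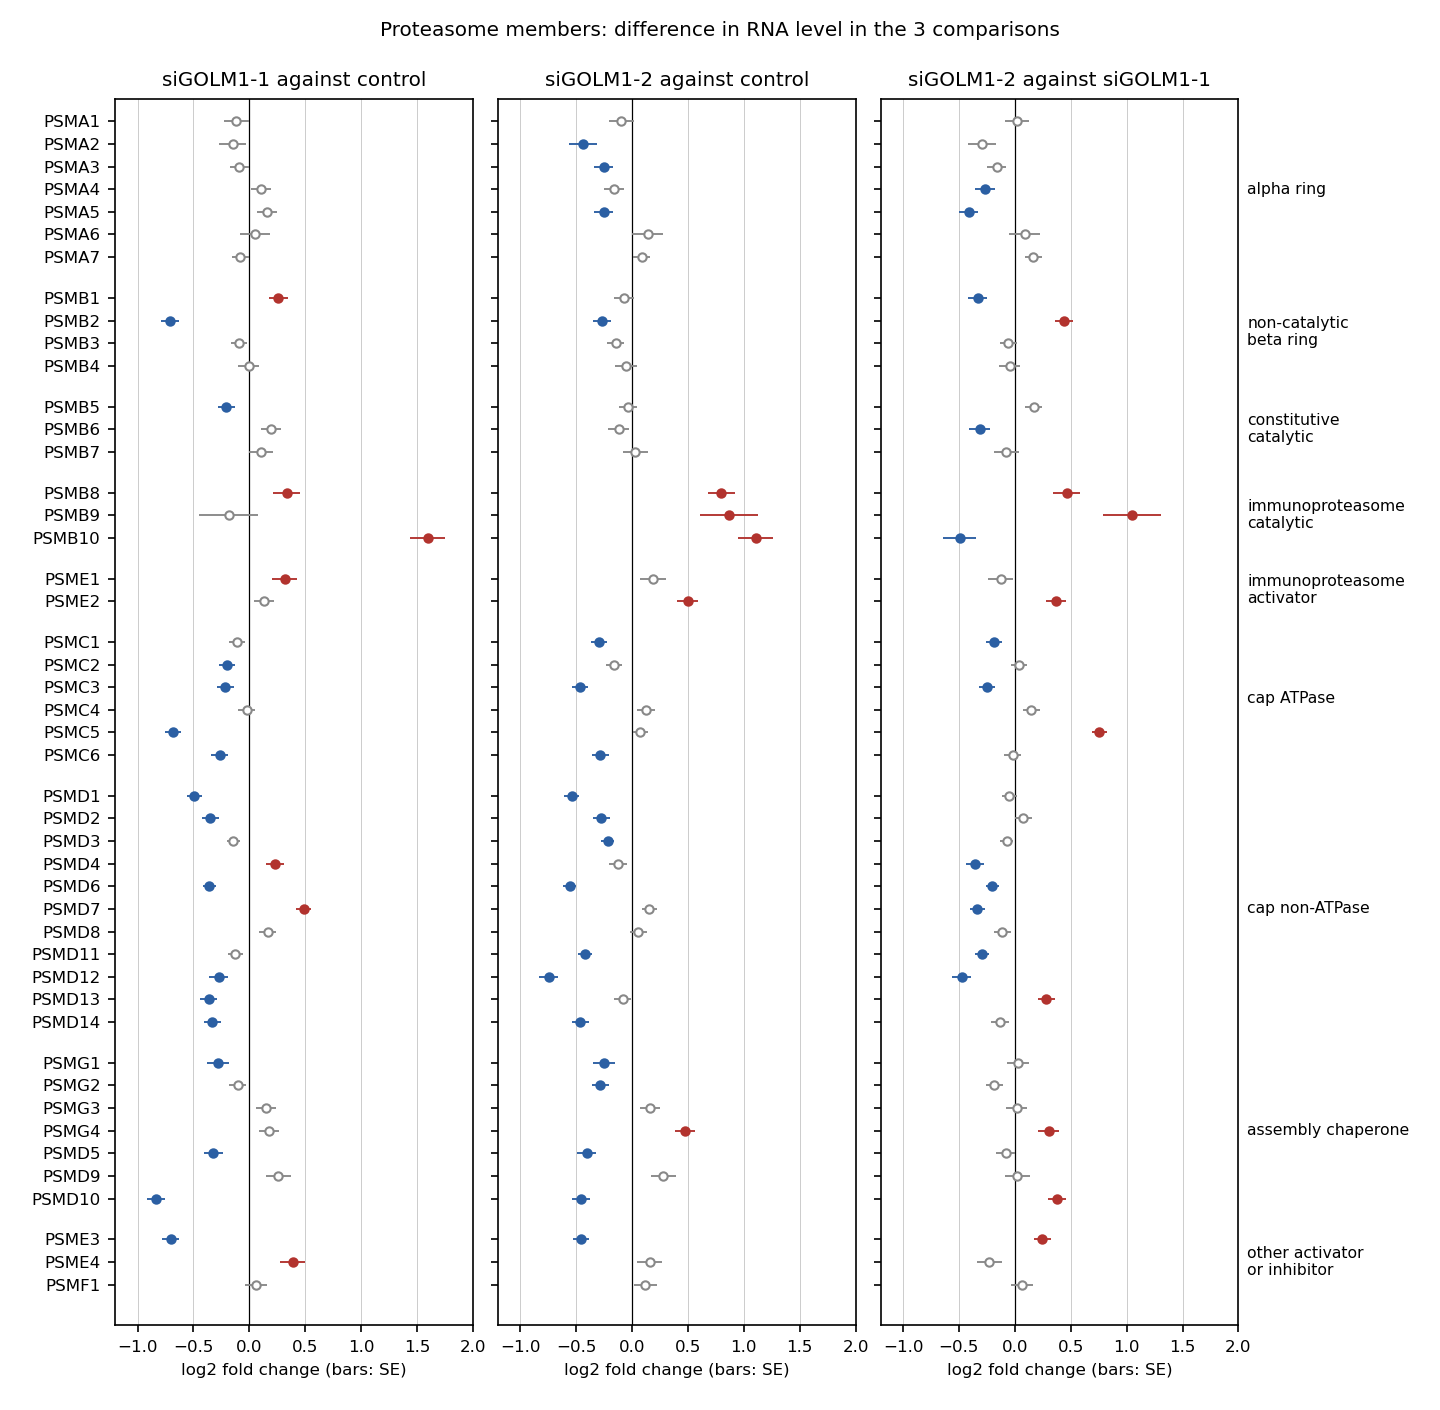
Log2 fold change of the 46 members in the 3 comparisons, grouped by role, with standard error bars from the edgeR fit. Filled red points were called higher, filled blue points lower, and open grey points were not called; the immunoproteasome genes lie to the right in the comparisons with control, apart from PSMB9 with siGOLM1-1, and most cap genes to the left.

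Across the 5 immunoproteasome genes, 3 rose with siGOLM1-1 and 4 rose with siGOLM1-2, and none fell against control; of all genes 23.7% and 21.8% were called higher. Their median log2 fold change was 0.31 with siGOLM1-1 and 0.80 with siGOLM1-2. Their summed level was 239 ± 20.1 CPM (SD) in control libraries, 285 ± 39.6 with siGOLM1-1 and 319 ± 35.7 with siGOLM1-2. The single-library medians over these genes, relative to the control mean, ran from -0.10 to 0.09 in the control, from 0.02 to 0.46 with siGOLM1-1 and from 0.47 to 1.06 with siGOLM1-2. The count of 3 with siGOLM1-1 was 1, PSMB10 alone, without control replicate 1, control replicate 2, siGOLM1-1 replicate 2 or siGOLM1-1 replicate 4, and against control replicates 3 and 4 alone. The count of 4 with siGOLM1-2 was 3 or 4 when any 1 library was left out. The summed leukocyte markers given above were also higher with both siRNAs. Of that list, PTPRC, at up to 0.04 CPM, and CD3E, at up to 0.02 CPM, were near 0 in every library. CD14, ITGAM and CD79A reached 15.2, 7.34 and 1.72 CPM.

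PSMB10, the inducible trypsin-like subunit, had the largest change among the 46 members with either siRNA. It stood at 2.36, 2.07, 2.31 and 2.60 CPM in control libraries, at 4.96, 7.93, 7.13 and 8.30 with siGOLM1-1 and at 4.72, 5.37, 5.17 and 4.85 with siGOLM1-2. Every siRNA library was above every control library. The log2 fold change was 1.60, SE 0.15, adjusted p = 2.26e-06 with siGOLM1-1, and 1.11, SE 0.15, adjusted p = 6.95e-05 with siGOLM1-2. Between the siRNAs, PSMB10 was lower with siGOLM1-2 (-0.49, SE 0.15, adjusted p = 0.012), although their libraries overlapped. Of the PSMB10 exon length, 34.8% overlaps another gene on the same strand in GENCODE release 29, and the effect of this on its count was not tested. That overlapping gene held 0.51 to 1.32 CPM over all libraries; its log2 fold change was -0.01 with siGOLM1-1 (adjusted p = 0.956) and -0.93 with siGOLM1-2 (adjusted p = 0.002).

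PSMB8, the inducible chymotrypsin-like subunit, stood at 23.4, 24.00, 24.6 and 22.97 CPM in control libraries, at 24.1, 35.5, 27.5 and 32.5 with siGOLM1-1 and at 37.7, 39.1, 38.03 and 50.1 with siGOLM1-2. With siGOLM1-2 each library was above each control and in the plot of catalytic subunits replicate 4 lay above the other 3; with siGOLM1-1 replicate 1 lay within the control range. PSMB8 rose with siGOLM1-1 (0.33, SE 0.12, adjusted p = 0.0347) and with siGOLM1-2 (0.80, SE 0.12, adjusted p = 0.00013), and was higher with siGOLM1-2 than with siGOLM1-1 (0.46, SE 0.12, adjusted p = 0.00473). The siGOLM1-1 call was lost in 9 of 17 alternatives, among them the removal of any single control library or of siGOLM1-1 replicate 2 or 4, with log2 values from 0.24 to 0.42. Without siGOLM1-2 replicate 4 the siGOLM1-2 value was 0.69 (adjusted p = 0.000292). On the opposite strand, 20.6% of the PSMB8 exon length is overlapped by PSMB8-AS1 and PSMB9. PSMB8-AS1 held 0.42 to 0.68 CPM in control libraries, 1.12 to 2.26 with siGOLM1-1 and 1.13 to 1.61 with siGOLM1-2. The strand setting of the counting is not given in the sources used here, so the share of such reads in PSMB8 was not tested.

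PSMB9, which takes the place of the caspase-like subunit PSMB6, stood at 6.78, 5.92, 7.37 and 6.64 CPM in control libraries, at 3.21, 8.25, 6.30 and 5.80 with siGOLM1-1 and at 9.97, 11.1, 9.24 and 18.4 with siGOLM1-2. All siGOLM1-2 libraries exceeded all control and all siGOLM1-1 libraries, and siGOLM1-2 replicate 4 was far above the other 3. The siGOLM1-1 libraries lay on both sides of the control, with replicate 1 the lowest of the 12. PSMB9 rose with siGOLM1-2 (0.86, SE 0.26, adjusted p = 0.0154) and was not called with siGOLM1-1 (-0.19, SE 0.26, adjusted p = 0.582). The difference between the siRNAs was called (1.05, SE 0.26, adjusted p = 0.00396). Without siGOLM1-2 replicate 4 the rise against control was 0.59 and no longer called (adjusted p = 0.0509), and the difference from siGOLM1-1 was 0.78 and called (adjusted p = 0.0111). The rise was also not called without the filter on low counts or against control replicates 1 and 2 or 3 and 4 alone. Without siGOLM1-1 replicate 1 the siGOLM1-1 value was 0.02 (adjusted p = 0.936).

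Of the activator pair, PSME2 moved with siGOLM1-2 and PSME1 with siGOLM1-1. PSME2 stood at 89.2, 88.7, 100.0 and 99.00 CPM in control libraries, at 87.5, 113, 101 and 111 with siGOLM1-1 and at 126, 128, 126 and 152 with siGOLM1-2, so that the siGOLM1-2 libraries were above all others while the siGOLM1-1 libraries overlapped the control. PSME2 rose with siGOLM1-2 (0.50, SE 0.09, adjusted p = 0.000632) and was not called with siGOLM1-1 (0.13, SE 0.09, adjusted p = 0.265), and the siRNAs differed (0.37, SE 0.09, adjusted p = 0.00387). PSME1 stood at 96.6, 104, 122 and 124 CPM in control libraries, at 114, 153, 133 and 157 with siGOLM1-1 and at 119, 124, 120.4 and 146 with siGOLM1-2. In the control, replicates 1 and 2 were lower than replicates 3 and 4, and the siRNA libraries overlapped that range. PSME1 was called higher with siGOLM1-1 (0.31, SE 0.11, adjusted p = 0.0345) and not with siGOLM1-2 (0.19, SE 0.11, adjusted p = 0.195), and the siRNAs did not differ by the test (-0.13, SE 0.11, adjusted p = 0.367). The siGOLM1-1 value was 0.47 against control replicates 1 and 2 alone and 0.18, not called (adjusted p = 0.269), against replicates 3 and 4 alone. That call was also lost with only these groups in the fit and without control replicate 1, control replicate 2, siGOLM1-1 replicate 2 or siGOLM1-1 replicate 4.

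The 3 constitutive catalytic subunits, which the inducible ones replace, held higher levels and smaller differences. PSMB5 stood at 145, 135, 144 and 142 CPM in control libraries, at 118, 138, 114 and 120.3 with siGOLM1-1 and at 134, 131, 129.8 and 156 with siGOLM1-2, with overlap among all groups. It was called lower with siGOLM1-1 (-0.20, SE 0.08, adjusted p = 0.0421), a call lost in 13 of 17 alternatives, among them DESeq2 and the removal of any 1 library other than siGOLM1-1 replicate 2, and it was not called with siGOLM1-2 (-0.04, SE 0.08, adjusted p = 0.731). PSMB6 stood at 168, 164, 169.8 and 167 CPM in control libraries, at 169, 224, 183 and 189 with siGOLM1-1 and at 147, 148, 142 and 178 with siGOLM1-2. The siGOLM1-1 libraries lay above the control range except replicate 1, which lay within it. PSMB6 was not called against control (0.19 with siGOLM1-1, -0.12 with siGOLM1-2), and was lower with siGOLM1-2 than with siGOLM1-1 (-0.32, SE 0.09, adjusted p = 0.0095), a call lost with library totals as scaling (-0.18, adjusted p = 0.0752). PSMB7 stood at 146, 142, 157 and 146 CPM in control libraries, at 146, 184, 149 and 155 with siGOLM1-1 and at 139, 140.4, 132 and 191 with siGOLM1-2 and was not called in any comparison, with log2 values of 0.11, 0.03 and -0.08 in the order used above. In PSMB5, PSMB6 and PSMB7, siGOLM1-2 replicate 4 was above the other 3 libraries of its group.

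**Figure D2:**
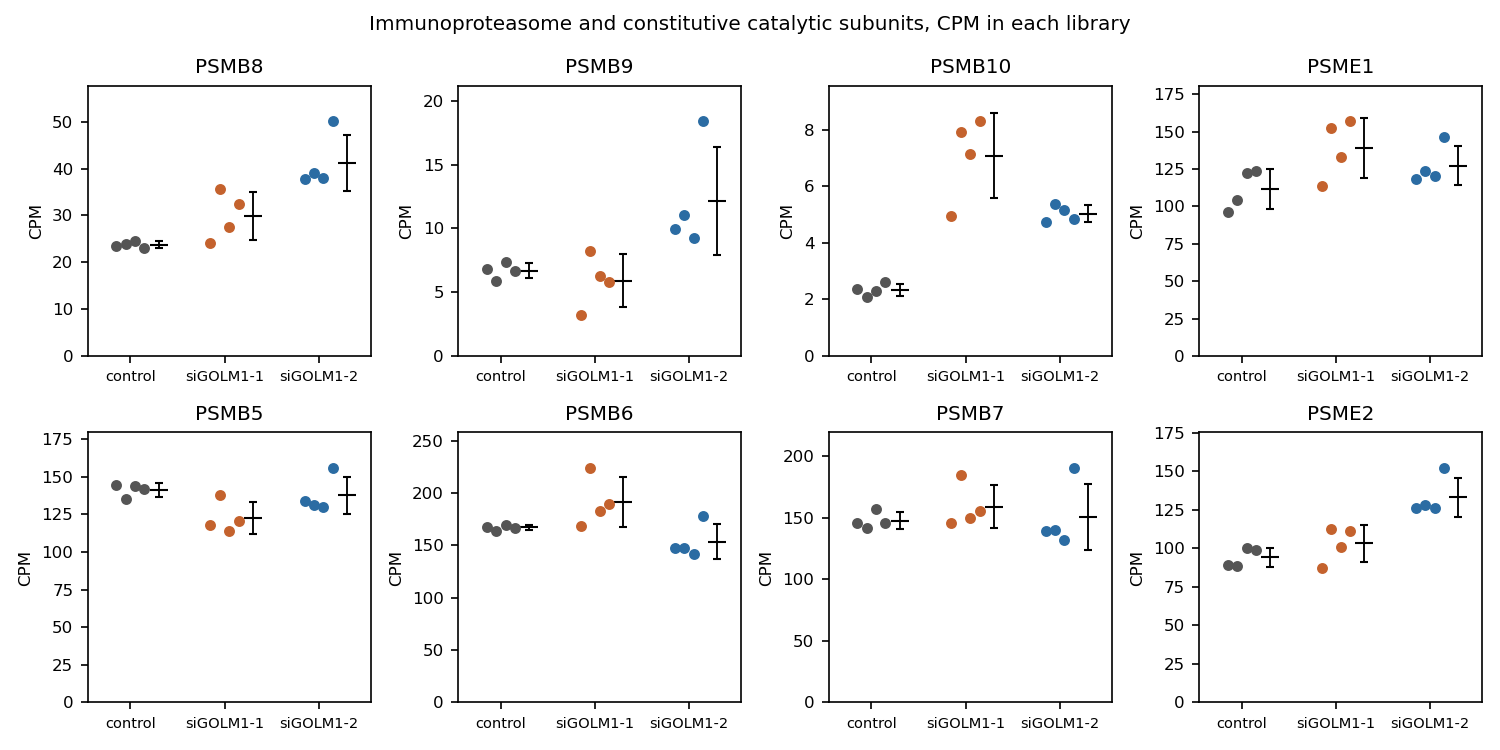
CPM of the immunoproteasome genes and the constitutive catalytic subunits in each of the 12 libraries (points, replicates 1 to 4 from left to right), with mean and SD at the side, on linear axes from 0. The siGOLM1-2 points of PSMB8, PSMB9 and PSME2 lie above all control points, and the siRNA points of PSMB10 lie above all control points for both siRNAs.

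A ratio of 2 genes within a library does not depend on the scaling between libraries. The log2 ratio of each inducible subunit to the constitutive one it replaces was compared by exact two-sided permutation over libraries. With 4 against 4 libraries such an exact permutation test cannot go below p = 0.0286, and 9 tests (3 pairs in 3 comparisons) were adjusted together by Benjamini-Hochberg. For PSMB8 to PSMB5 the control libraries held log2 ratios of -2.63, -2.49, -2.55 and -2.62. The siGOLM1-1 libraries held -2.29, -1.96, -2.05 and -1.89, and the siGOLM1-2 libraries -1.83, -1.75, -1.77 and -1.64. The 3 groups did not overlap. The ratio was 1.44-fold higher with siGOLM1-1 and 1.77-fold higher with siGOLM1-2 than in control, and 1.23-fold higher with siGOLM1-2 than with siGOLM1-1 (exact permutation p = 0.0286 and adjusted p = 0.0367 for each, higher in 4 of 4 libraries). Taken to the sum of PSMB5, PSMB6 and PSMB7 in place of PSMB5, the log2 difference of PSMB8 was 0.27 in place of 0.53 with siGOLM1-1 and 0.57 in place of 0.30 between the siRNAs, and both were called (exact permutation adjusted p = 0.0367). The call of PSMB8 to PSMB5 with siGOLM1-1 was lost without any 1 of the 4 control libraries (0.51 to 0.55, exact permutation adjusted p = 0.0735). The call between the siRNAs was lost without any 1 of the 4 siGOLM1-2 libraries (0.26 to 0.33, exact permutation adjusted p = 0.0643). In both cases the groups still did not overlap. The exact permutation p was 0.0571 before adjustment there, since it moves in coarse steps with so few libraries.

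For PSMB9 to PSMB6 the log2 ratios were -4.63, -4.79, -4.52 and -4.65 in the control, -5.71, -4.76, -4.86 and -5.02 with siGOLM1-1 and -3.88, -3.74, -3.94 and -3.27 with siGOLM1-2. With siGOLM1-2 the ratio was 1.92-fold higher than in control and 2.61-fold higher than with siGOLM1-1 (exact permutation p = 0.0286, adjusted p = 0.0367), with no overlap. With siGOLM1-1 the difference from control was -0.44 and was not called (exact permutation p = 0.0571, adjusted p = 0.0643). Without siGOLM1-1 replicate 2 it was -0.55 and called (exact permutation adjusted p = 0.0321). For PSMB10 to PSMB7 they were -5.94, -6.09, -6.08 and -5.80 in the control, -4.87, -4.54, -4.39 and -4.22 with siGOLM1-1 and -4.88, -4.71, -4.67 and -5.29 with siGOLM1-2. Both siRNA groups were above the control without overlap, 2.78-fold with siGOLM1-1 and 2.13-fold with siGOLM1-2 (exact permutation p = 0.0286, adjusted p = 0.0367). The siRNAs differed by -0.38, which was not called (exact permutation p = 0.114, adjusted p = 0.114).

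CPM was also divided by the union of all annotated exons of a gene (GENCODE release 29, GRCh38, while the counts were made on hg19). This union can be longer than the transcripts made, unequally between genes, so shares on this scale are approximate. It was 2997 bases for PSMB8 and 1765 for PSMB5, 3072 for PSMB9 and 1448 for PSMB6, and 1853 for PSMB10 and 1787 for PSMB7. The PSMB10 share also carries the exon overlap given above. On that scale PSMB8 made up 9.02% ± 0.38 (SD) of PSMB8 and PSMB5 together in control libraries, 12.5% ± 1.30 with siGOLM1-1 and 14.9% ± 0.71 with siGOLM1-2. PSMB9 made up 1.85% ± 0.14 of its pair with PSMB6 in control libraries, 1.40% ± 0.36 with siGOLM1-1 and 3.53% ± 0.76 with siGOLM1-2. PSMB10 made up 1.504% ± 0.14 of its pair with PSMB7 in control libraries, 4.12% ± 0.73 with siGOLM1-1 and 3.19% ± 0.57 with siGOLM1-2. On that scale the constitutive subunit remained the larger part of each pair in all 12 libraries. The highest share of an inducible subunit was 15.9%, for PSMB8 in siGOLM1-2 replicate 4.

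**Figure D3:**
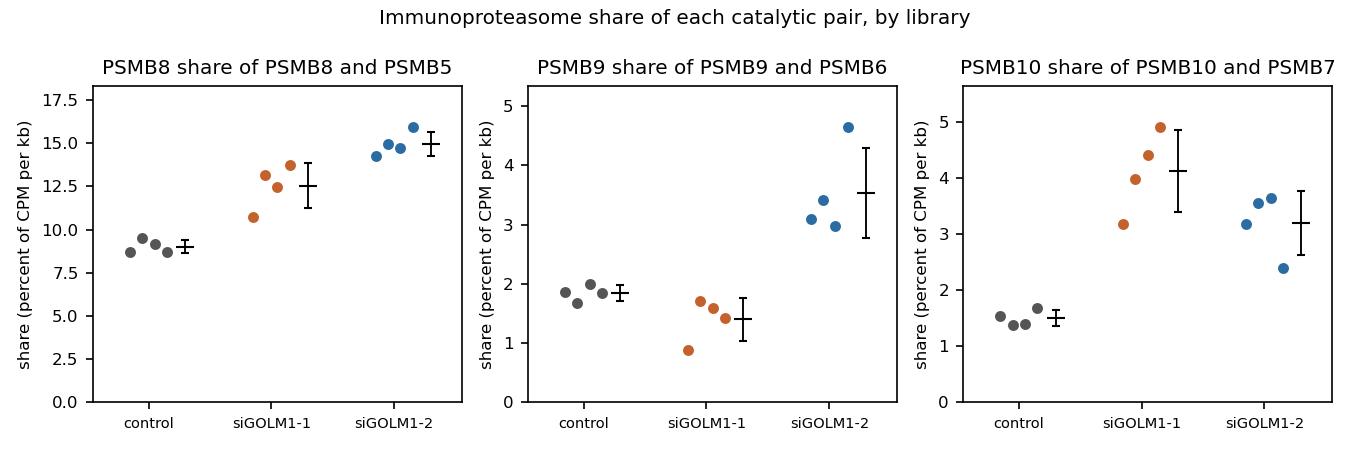
Share of the inducible subunit in each catalytic pair, in percent of the pair's CPM per kb, for each of the 12 libraries (points) with mean and SD at the side, on linear axes from 0. The PSMB8 share separates all 3 groups, the PSMB9 share is high in the siGOLM1-2 libraries, and the PSMB10 share is above the control with both siRNAs.

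Of the 17 cap subunits, 10 fell and 2 rose with siGOLM1-1, beside 23.8% of all genes called lower and 23.7% higher, and the median log2 fold change was -0.21. With siGOLM1-2, 10 fell and 0 rose, beside 23.2% of all genes lower and 21.8% higher, and the median was -0.28. Their summed level was 2919 ± 57.8 CPM (SD) in control libraries, 2623 ± 86.4 with siGOLM1-1 and 2545 ± 186 with siGOLM1-2, and every siRNA library was below every control library. When 1 library was left out, 7 to 10 cap members were called lower with siGOLM1-1 and 10 to 11 with siGOLM1-2. The cap has a base, which holds the ATPases and touches the core, and a lid, which removes ubiquitin. Of 9 base members, 6 fell with siGOLM1-1 and 5 with siGOLM1-2, and of 8 lid members, 4 and 5 fell.

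**Figure D4:**
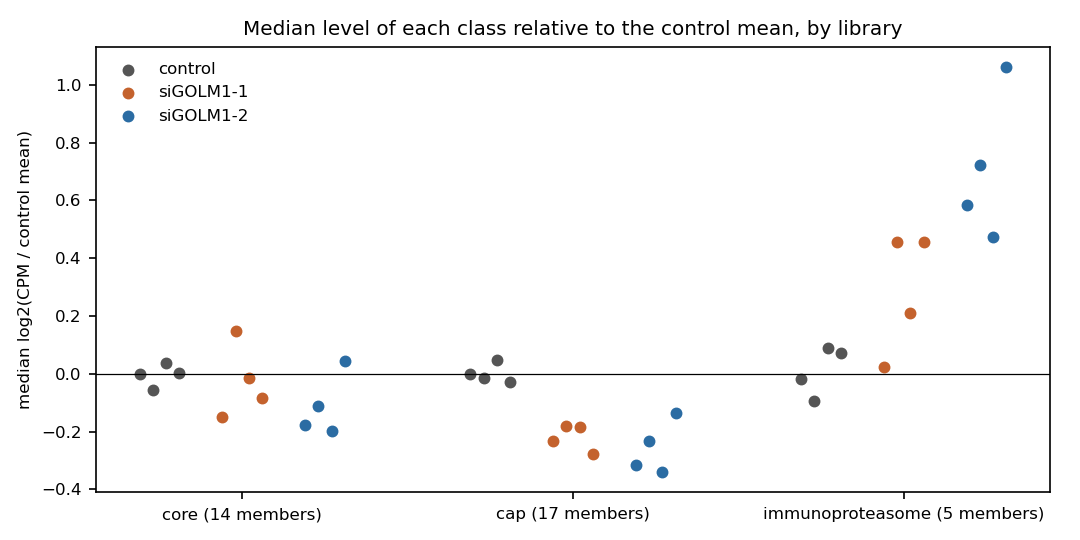
Median over the members of each class of log2(CPM divided by the control mean), one point per library, for the core, cap and immunoproteasome classes. All cap medians of the siRNA libraries are below 0, between -0.34 and -0.14, all immunoproteasome medians of the siRNA libraries are above 0, and the core medians lie on both sides.

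Among the ATPases of the base, which unfold substrates, PSMC5 separated the siRNAs. It stood at 182, 181, 192 and 186 CPM in control libraries, at 109, 121, 114 and 118 with siGOLM1-1 and at 188, 194, 179 and 219 with siGOLM1-2. The siGOLM1-1 libraries were below all others, and the siGOLM1-2 libraries overlapped the control. PSMC5 fell with siGOLM1-1 (-0.68, SE 0.07, adjusted p = 3.39e-06), was not called with siGOLM1-2 (0.07, SE 0.07, adjusted p = 0.399) and was 1.69-fold higher with siGOLM1-2 than with siGOLM1-1 (log2 0.76, SE 0.07, adjusted p = 7.98e-07). FTSJ3, which overlaps 19.5% of the PSMC5 exon length on the opposite strand, was lower with siGOLM1-1 (-0.24) and with siGOLM1-2 (-0.48), and its part in the PSMC5 value was not tested.

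PSMC3 stood at 158, 154, 163 and 152 CPM in control libraries, at 136, 149, 127 and 129 with siGOLM1-1 and at 109, 111, 107 and 127 with siGOLM1-2, with both siRNA groups below the control. It fell with siGOLM1-1 (-0.21, adjusted p = 0.026) and with siGOLM1-2 (-0.47, SE 0.07, adjusted p = 0.000168), and was lower with siGOLM1-2 than with siGOLM1-1 (-0.25, SE 0.07, adjusted p = 0.0093), which library totals as scaling ended (-0.12, adjusted p = 0.148). PSMC6 stood at 112, 109.6, 101 and 91.7 CPM in control libraries, at 87.9, 90.2, 89.4 and 77.4 with siGOLM1-1 and at 83.04, 87.8, 81.5 and 87.5 with siGOLM1-2. All its siRNA libraries were below all controls, of which replicates 3 and 4 were the lower. PSMC6 fell with both siRNAs (-0.26, SE 0.08, adjusted p = 0.0107, and -0.28, SE 0.08, adjusted p = 0.00736), but against control replicates 3 and 4 alone its siGOLM1-1 value was -0.15 and not called (adjusted p = 0.176). PSMC1 stood at 110.0, 106, 116 and 110.1 CPM in control libraries, at 98.9, 111, 101 and 99.7 with siGOLM1-1 and at 85.6, 89.8, 84.5 and 101 with siGOLM1-2. Its siGOLM1-2 libraries were all below the control, and siGOLM1-1 replicate 2 was within it. PSMC1 fell with siGOLM1-2 (-0.30, SE 0.07, adjusted p = 0.00335) and was not called with siGOLM1-1 (-0.11). NRDE2, which overlaps 75.8% of the PSMC1 exon length on the opposite strand, held 23.4 to 28.4 CPM in the control and 16.7 to 18.4 with siGOLM1-2 and was also lower there (-0.55, adjusted p = 6.65e-05), and its part in the PSMC1 value was not tested. Of the other 2 ATPases, PSMC2 fell with siGOLM1-1 (-0.20, adjusted p = 0.0328) and PSMC4 was not called in any comparison.

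PSMD1 and PSMD2 are the large scaffold subunits of the base. PSMD1 stood at 213, 203, 206 and 203 CPM in control libraries, at 165, 147, 143 and 132 with siGOLM1-1 and at 138, 148, 139 and 142 with siGOLM1-2, with all 8 siRNA libraries below all controls. It fell with siGOLM1-1 (-0.49, SE 0.07, adjusted p = 5.76e-05) and with siGOLM1-2 (-0.54, SE 0.07, adjusted p = 3.20e-05), and the difference between the siRNAs was -0.05 (adjusted p = 0.571). PSMD2 fell by 0.35 with siGOLM1-1 and by 0.28 with siGOLM1-2. PSMD4, a ubiquitin receptor, rose with siGOLM1-1 (0.23, adjusted p = 0.0241), was not called with siGOLM1-2 (-0.13) and was lower with siGOLM1-2 than with siGOLM1-1 (-0.36, SE 0.08, adjusted p = 0.00143).

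In the lid, PSMD12 and PSMD6, which belong to its structural frame, were the members with the smallest p with siGOLM1-2. PSMD12 stood at 109.6, 112, 111 and 107 CPM in control libraries, at 86.99, 91.98, 103 and 81.7 with siGOLM1-1 and at 62.02, 68.9, 57.9 and 73.2 with siGOLM1-2. The 3 groups did not overlap, with the control highest and siGOLM1-2 lowest. PSMD12 fell with siGOLM1-1 (-0.27, SE 0.08, adjusted p = 0.017) and with siGOLM1-2 (-0.75, SE 0.09, adjusted p = 1.31e-05), and was lower with siGOLM1-2 (-0.47, SE 0.09, adjusted p = 0.000345). PSMD6 stood at 89.6, 95.3, 88.9 and 87.9 CPM in control libraries, at 72.7, 67.1, 74.1 and 67.9 with siGOLM1-1 and at 60.3, 63.5, 60.03 and 61.5 with siGOLM1-2, also in 3 groups without overlap, and fell with siGOLM1-1 (-0.36, SE 0.06, adjusted p = 0.000215) and with siGOLM1-2 (-0.56, SE 0.06, adjusted p = 6.76e-06). PSMD14, the deubiquitinase of the lid, fell with both (-0.33, adjusted p = 0.00318, and -0.46, adjusted p = 0.000303). PSMD11 fell with siGOLM1-2 (-0.42, SE 0.07, adjusted p = 0.00016) and was not called with siGOLM1-1 (-0.13), and the siRNAs differed (-0.29, SE 0.07, adjusted p = 0.00166). PSMD13 fell with siGOLM1-1 (-0.36, SE 0.08, adjusted p = 0.00146) and was not called with siGOLM1-2 (-0.08), and was higher with siGOLM1-2 than with siGOLM1-1 (0.28, SE 0.08, adjusted p = 0.00657).

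PSMD7, the partner of PSMD14 in the lid, moved the other way. It stood at 126, 129, 136 and 123 CPM in control libraries, at 170.2, 194, 177 and 178 with siGOLM1-1 and at 136, 146, 135 and 154 with siGOLM1-2, and the siGOLM1-1 libraries were above all others. PSMD7 rose with siGOLM1-1 (0.49, SE 0.07, adjusted p = 4.66e-05), was not called with siGOLM1-2 (0.15, SE 0.07, adjusted p = 0.0752) and was lower with siGOLM1-2 than with siGOLM1-1 (-0.33, SE 0.07, adjusted p = 0.000763). A gene on the opposite strand overlaps 30.7% of the PSMD7 exon length and held at most 2.25 CPM in any library; its part in the PSMD7 value was not tested. PSMD8 was not called in any comparison, and PSMD3 fell with siGOLM1-2 (-0.22, adjusted p = 0.00803).

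Of the 14 core subunits, 1 rose and 2 fell with siGOLM1-1, and 0 rose and 4 fell with siGOLM1-2. The shares called were 21.4% and 28.6%, below the 47.5% and 45% of all genes. Their summed level was 1766 ± 54.0 CPM (SD) in control libraries, 1746 ± 165 with siGOLM1-1 and 1651 ± 157 with siGOLM1-2, with overlap among the groups. In the beta ring, PSMB2, which has no cutting site, was the core member with the largest change with siGOLM1-1; with siGOLM1-2 the change of PSMA2 was larger. PSMB2 stood at 134, 143, 155 and 146 CPM in control libraries, at 80.8, 96.2, 93.3 and 82.6 with siGOLM1-1 and at 112, 119, 114 and 134 with siGOLM1-2. All siGOLM1-1 libraries were below all others, and siGOLM1-2 replicate 4 reached into the control range. PSMB2 fell with siGOLM1-1 (-0.71, SE 0.08, adjusted p = 9.56e-06) and with siGOLM1-2 (-0.27, SE 0.08, adjusted p = 0.0138), and was higher with siGOLM1-2 than with siGOLM1-1 (0.44, SE 0.08, adjusted p = 0.000413). Against control replicates 1 and 2 alone the siGOLM1-2 value was -0.20 and not called (adjusted p = 0.117).

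PSMB1, another subunit without a cutting site, stood at 99.4, 95.4, 106 and 107 CPM in control libraries, at 112, 139, 118 and 120.0 with siGOLM1-1 and at 90.5, 97.5, 88.1 and 112 with siGOLM1-2. The siGOLM1-1 libraries were above the other groups. PSMB1 rose with siGOLM1-1 (0.26, SE 0.09, adjusted p = 0.0245), was not called with siGOLM1-2 (-0.07) and was lower with siGOLM1-2 than with siGOLM1-1 (-0.33, SE 0.09, adjusted p = 0.00532). The rise was not called without control replicate 1, control replicate 2 or siGOLM1-1 replicate 2, or against control replicates 3 and 4 alone. PSMB3 and PSMB4 were not called in any comparison.

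The alpha ring gates the entry of substrates. None of its 7 members was called with siGOLM1-1, and PSMA2, PSMA3 and PSMA5 fell with siGOLM1-2. The shares called were 0% and 42.9%, beside 47.5% and 45% of all genes called in either direction. Of all genes, 23.2% were called lower with siGOLM1-2. PSMA3 stood at 126, 120.5, 126 and 119 CPM in control libraries, at 108, 130.3, 118 and 104 with siGOLM1-1 and at 95.9, 105, 93.7 and 117 with siGOLM1-2. Every siGOLM1-2 library was below every control, and its fall with siGOLM1-2 (-0.25, SE 0.08, adjusted p = 0.0254) was lost in 8 of 17 alternatives. Those include leaving out control replicate 1, 2 or 3, or siGOLM1-2 replicate 1 or 3. PSMA5 stood at 100.4, 93.9, 99.9 and 94.8 CPM in control libraries, at 98.1, 127, 103 and 107 with siGOLM1-1 and at 77.1, 81.3, 75.3 and 92.4 with siGOLM1-2. The siGOLM1-2 libraries were below all others. PSMA5 fell with siGOLM1-2 (-0.25, adjusted p = 0.0279) and was lower there than with siGOLM1-1 (-0.41, SE 0.09, adjusted p = 0.00114). PSMA4 stood at 266, 246, 254 and 233 CPM in control libraries, at 258, 308, 275 and 235 with siGOLM1-1 and at 211, 230.2, 205 and 249 with siGOLM1-2, with overlap among all groups, and was called between the siRNAs only (-0.27, SE 0.09, adjusted p = 0.0213), a call lost without siGOLM1-1 replicate 2 or siGOLM1-2 replicate 1 or 3, with library totals as scaling, and with only these groups in the fit. PSMA2 stood at 4.28, 3.94, 4.26 and 4.07 CPM in control libraries, at 3.66, 3.54, 4.21 and 3.51 with siGOLM1-1 and at 2.44, 3.37, 3.27 and 3.08 with siGOLM1-2, lowest with siGOLM1-2 without overlap. It fell with siGOLM1-2 (-0.44, SE 0.13, adjusted p = 0.0106), although not against control replicates 1 and 2 alone (adjusted p = 0.0518).

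The levels of PSMA1, PSMA2 and PSMA6 were low beside the rest of the alpha ring. In the control they held 3.35, 0.78 and 0.87 CPM per kb, while the other 4 alpha subunits held 16.99 to 129 CPM per kb. Each of the 3 shares exons on the same strand with another annotated gene, over 24.7%, 14.6% and 14.1% of its length. PSMD9, at 0.58 CPM per kb, shares 19.9% in the same way. For PSMA1 and PSMA2 the other gene is the second identifier left out above, with at most 0 and 3 counts in a library. The gene sharing exons with PSMA6 held 0.26 to 0.63 CPM, and those sharing exons with PSMD9 at most 2.54 CPM. How the counting treated reads shared by genes is not given in the sources used here, so the levels of these genes and of PSMB10 are uncertain.

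Of the 7 assembly chaperones, 3 fell with siGOLM1-1, and 4 fell and 1 rose with siGOLM1-2, shares of 42.9% and 71.4% beside 47.5% and 45% of all genes. PSMD10, or gankyrin, a chaperone of the base, stood at 62.8, 64.8, 65.2 and 60.1 CPM in control libraries, at 34.5, 39.3, 38.1 and 29.7 with siGOLM1-1 and at 45.1, 46.5, 44.4 and 47.9 with siGOLM1-2, in 3 groups without overlap. It fell with siGOLM1-1 (-0.84, SE 0.08, adjusted p = 2.62e-06) and with siGOLM1-2 (-0.46, SE 0.08, adjusted p = 0.000474), and was higher with siGOLM1-2 than with siGOLM1-1 (0.38, SE 0.08, adjusted p = 0.00149). PSMD5, a further chaperone of the base, stood at 94.9, 92.5, 98.6 and 89.2 CPM in control libraries, at 79.2, 76.9, 82.1 and 61.4 with siGOLM1-1 and at 67.2, 73.7, 68.5 and 73.8 with siGOLM1-2, with all siRNA libraries below all controls, and fell with siGOLM1-1 (-0.32, SE 0.08, adjusted p = 0.00615) and with siGOLM1-2 (-0.41, SE 0.08, adjusted p = 0.00149). PSMG4, a chaperone of the core, stood at 9.73, 10.9, 9.80 and 11.2 CPM in control libraries, at 11.1, 12.97, 11.4 and 11.6 with siGOLM1-1 and at 13.5, 13.7, 14.5 and 16.3 with siGOLM1-2, and all siGOLM1-2 libraries were above all others. PSMG4 rose with siGOLM1-2 (0.48, SE 0.09, adjusted p = 0.000842), was not called with siGOLM1-1 (0.17) and differed between the siRNAs (0.30, SE 0.09, adjusted p = 0.0121). SLC22A23 and TUBB2B overlap 14.99% of the PSMG4 exon length on the opposite strand. SLC22A23 was higher with siGOLM1-2 (0.55) and more so with siGOLM1-1 (0.99), and TUBB2B was lower with siGOLM1-2 (-0.42) and higher with siGOLM1-1 (0.84). PSMG1 fell with both siRNAs (-0.28 and -0.25), PSMG2 fell with siGOLM1-2 (-0.29), and PSMG3 and PSMD9 were not called in any comparison.

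PSME3 forms an activator found in the nucleus, PSME4 another that is linked to histone breakdown, and PSMF1 is an inhibitor of the core. PSME3 stood at 287, 289.7, 289.6 and 271 CPM in control libraries, at 177, 176, 190.1 and 154 with siGOLM1-1 and at 196, 213, 196 and 223 with siGOLM1-2. All siRNA libraries were below all controls, and the siGOLM1-1 libraries were below those of siGOLM1-2. PSME3 fell with siGOLM1-1 (-0.70, SE 0.07, adjusted p = 4.55e-06) and with siGOLM1-2 (-0.46, SE 0.07, adjusted p = 0.000208), and the siRNAs differed (0.25, SE 0.07, adjusted p = 0.0114). PSME1 and PSME2, of the same family, did not fall with either siRNA. PSME4 stood at 135, 119.9, 99.01 and 98.6 CPM in control libraries, at 171, 157, 139 and 124 with siGOLM1-1 and at 124, 130.1, 127 and 125 with siGOLM1-2, with control replicates 1 and 2 above replicates 3 and 4 and overlap among the groups. It was called higher with siGOLM1-1 (0.39, SE 0.11, adjusted p = 0.0113), but against control replicates 1 and 2 alone the value was 0.22 and not called (adjusted p = 0.151). PSMF1 was not called in any comparison.

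**Figure D5:**
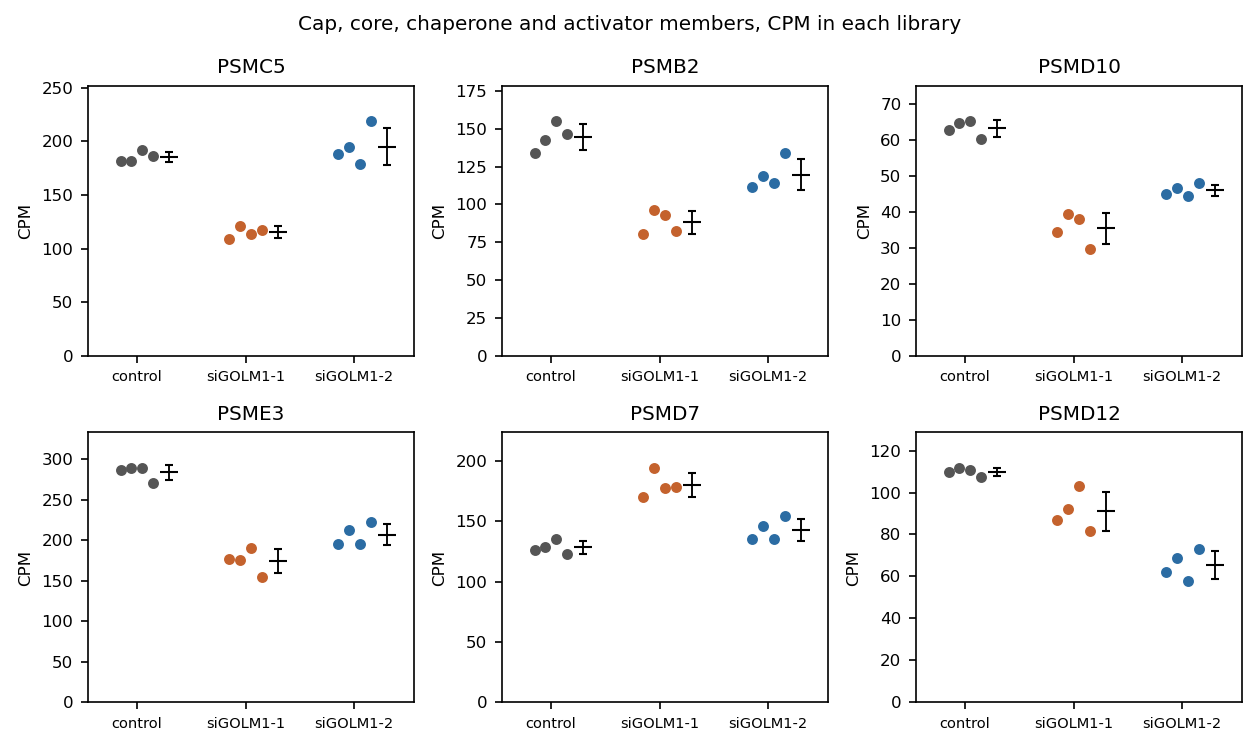
CPM of PSMC5, PSMB2, PSMD10, PSME3, PSMD7 and PSMD12 in each of the 12 libraries (points, replicates 1 to 4 from left to right), with mean and SD at the side, on linear axes from 0. PSMC5 is low in the siGOLM1-1 libraries alone, PSMD7 is highest there, and PSMD12 is lowest in the siGOLM1-2 libraries.

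Genes that act with the proteasome were described from 5 further lists. Of 11 interferon-linked and peptide presentation genes, 4 rose with siGOLM1-1 and 0 fell, 7 rose and 2 fell with siGOLM1-2, and 5 were higher and 1 lower with siGOLM1-2 than with siGOLM1-1. The shares called were 36.4% with siGOLM1-1, 81.8% with siGOLM1-2 and 54.5% between the siRNAs, beside 47.5%, 45% and 54.4% of all genes. The median log2 fold change was 0.01 with siGOLM1-1 and 0.56 with siGOLM1-2. TAP1, a peptide transporter whose gene shares a two-way promoter with PSMB9, stood at 53.1, 51.00, 54.3 and 53.1 CPM in control libraries, at 50.9, 52.1, 49.6 and 48.9 with siGOLM1-1 and at 92.7, 93.8, 86.5 and 118 with siGOLM1-2. It rose with siGOLM1-2 (0.89, SE 0.09, adjusted p = 3.18e-06), was not called with siGOLM1-1 (-0.07) and differed between the siRNAs (0.96, SE 0.09, adjusted p = 6.39e-07). Leaving out siGOLM1-2 replicate 4 or any other library did not end either call.

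NLRC5, a transactivator of MHC class I genes and PSMB9, stood at 11.5, 11.4, 10.04 and 9.32 CPM in control libraries, at 8.48, 9.56, 10.7 and 11.2 with siGOLM1-1 and at 19.7, 19.7, 20.3 and 19.6 with siGOLM1-2. Its siGOLM1-2 libraries were above all others, and it differed between the siRNAs (0.99, SE 0.10, adjusted p = 1.88e-06). IRF2 stood at 17.4, 19.3, 17.96 and 18.04 CPM in control libraries, at 29.2, 32.5, 32.8 and 30.7 with siGOLM1-1 and at 28.3, 28.98, 26.8 and 29.5 with siGOLM1-2, with both siRNA groups above the control, and rose with siGOLM1-1 (0.78, SE 0.07, adjusted p = 8.60e-07) and siGOLM1-2 (0.64, SE 0.07, adjusted p = 7.46e-06). IRF1, which drives immunoproteasome genes after interferon, stood at 19.95, 20.5, 23.8 and 22.3 CPM in control libraries, at 28.2, 40.5, 40.6 and 40.1 with siGOLM1-1 and at 28.5, 29.9, 29.9 and 38.9 with siGOLM1-2, above the control in all siRNA libraries, and rose with both (siGOLM1-1 0.79, adjusted p = 0.000207; siGOLM1-2 0.56, adjusted p = 0.00298). TAP2, the partner of TAP1 in the transporter, chosen after its values were seen, fell with siGOLM1-2 (-0.42, adjusted p = 0.00886).

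Of 8 regulators of proteasome gene transcription, 5 rose and 2 fell with siGOLM1-1, 3 rose and 2 fell with siGOLM1-2, and 2 were higher and 5 lower with siGOLM1-2 than with siGOLM1-1. The shares called were 87.5%, 62.5% and 87.5%, beside 47.5%, 45% and 54.4% of all genes. NFE2L1 and NFE2L2, given here after their values were seen, moved in opposite directions with siGOLM1-1. NFE2L1 fell (-0.36, SE 0.06, adjusted p = 0.000227) and NFE2L2 rose (0.73, SE 0.12, adjusted p = 0.000268). Neither was called with siGOLM1-2 (-0.04 and 0.16). MAFK, a small MAF partner of NFE2L1 and NFE2L2, stood at 104, 132, 61.6 and 64.6 CPM in control libraries, at 260.3, 219, 278 and 366 with siGOLM1-1 and at 50.2, 45.9, 50.1 and 37.4 with siGOLM1-2. It rose with siGOLM1-1 (1.64, SE 0.23, adjusted p = 7.57e-05) and fell with siGOLM1-2 (-0.98, SE 0.23, adjusted p = 0.00356), and the siRNAs differed (-2.61, SE 0.24, adjusted p = 1.17e-06). The control libraries were split, replicates 1 and 2 above replicates 3 and 4, and against the latter alone the siGOLM1-2 value was -0.44 and not called (adjusted p = 0.057). MAFF, of the same family, stood at 2.94, 3.03, 1.80 and 1.79 CPM in control libraries, at 7.28, 14.5, 14.3 and 12.1 with siGOLM1-1 and at 4.34, 4.50, 5.13 and 10.5 with siGOLM1-2. All siRNA libraries were above the control, with siGOLM1-2 replicate 4 the highest of its group, and MAFF rose with siGOLM1-2 (1.35, SE 0.32, adjusted p = 0.00385), although not against control replicates 1 and 2 alone (0.96, adjusted p = 0.0617). DDI2, the protease that activates NFE2L1, stood at 33.6, 30.4, 28.1 and 29.1 CPM in control libraries, at 20.9, 18.1, 20.9 and 16.6 with siGOLM1-1 and at 30.1, 30.6, 29.99 and 28.4 with siGOLM1-2. The siGOLM1-1 libraries were below all others, and DDI2 fell with siGOLM1-1 (-0.66, SE 0.09, adjusted p = 3.55e-05) but was not called with siGOLM1-2 (-0.03). KEAP1, which restrains NFE2L2 and is known to be mutated in A549 cells, stood at 69.4, 68.3, 74.3 and 72.5 CPM in control libraries, at 108, 128, 116 and 126 with siGOLM1-1 and at 81.95, 81.5, 81.2 and 87.7 with siGOLM1-2, in 3 groups without overlap, and rose with siGOLM1-1 (0.75, SE 0.07, adjusted p = 1.06e-06) and siGOLM1-2 (0.22, adjusted p = 0.0143).

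Of 12 associated and assembly factors, 4 rose and 2 fell with siGOLM1-1, and 2 rose and 4 fell with siGOLM1-2, a share of 50% each time beside 47.5% and 45% of all genes. ZFAND5, an activator of the proteasome, rose with siGOLM1-1 (0.75, SE 0.09, adjusted p = 1.88e-05), and UCHL5, a deubiquitinase at the cap, fell (-0.55, SE 0.11, adjusted p = 0.0009). POMP, which matures the core, stood at 71.7, 71.3, 71.7 and 67.6 CPM in control libraries, at 68.2, 82.9, 90.5 and 70.7 with siGOLM1-1 and at 49.9, 54.1, 47.9 and 60.8 with siGOLM1-2. The siGOLM1-2 libraries were below all others. POMP fell with siGOLM1-2 (-0.41, SE 0.10, adjusted p = 0.00354), and so did USP14, another deubiquitinase at the cap (-0.34, SE 0.09, adjusted p = 0.0072), although not against control replicates 3 and 4 alone (adjusted p = 0.0895). Between the siRNAs AKIRIN2, which brings proteasomes into the nucleus (-0.54, SE 0.08, adjusted p = 0.000106), and KIAA0368, an adaptor of the proteasome (-0.38, SE 0.06, adjusted p = 5.76e-05), were lower with siGOLM1-2.

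Of 11 genes of ubiquitin delivery, 2 rose and 2 fell with siGOLM1-1, and 0 rose and 5 fell with siGOLM1-2, shares of 36.4% and 45.5% beside 47.5% and 45% of all genes. UBQLN2, a shuttle that carries ubiquitinated proteins to the proteasome, stood at 56.6, 61.4, 71.7 and 70.5 CPM in control libraries, at 82.8, 85.8, 93.3 and 87.3 with siGOLM1-1 and at 29.5, 32.1, 31.4 and 31.5 with siGOLM1-2. The 3 groups did not overlap: UBQLN2 rose with siGOLM1-1 (0.42, SE 0.08, adjusted p = 0.00061), fell with siGOLM1-2 (-1.06, SE 0.08, adjusted p = 4.34e-07) and was 2.80-fold lower with siGOLM1-2 than with siGOLM1-1 (adjusted p = 7.42e-09). VCP, the segregase that pulls substrates apart, was lower with siGOLM1-2 than with siGOLM1-1 (-0.43, SE 0.07, adjusted p = 0.000101). UBQLN1, a related shuttle, fell with siGOLM1-2 (-0.42, SE 0.07, adjusted p = 0.000211). Of 6 ubiquitin and activating enzyme genes, 1 rose with siGOLM1-1 and 2 fell with siGOLM1-2, shares of 16.7% and 33.3%. Those that fell were RPS27A (-0.29, adjusted p = 0.0224), a call lost in 7 of 17 alternatives, and UBA1 (-0.31, adjusted p = 0.00407; adjusted p = 0.0583 against control replicates 1 and 2 alone).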

How the data were processed

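RNA of A549 cells in 3 groups of 4 libraries was sequenced. Per the labels' protocols, libraries were made with a stranded mRNA kit and read in pairs. Per the submitters' processing notes, bcl2fastq 2.20, STAR 2.7.3, DESeq2 1.24.0 and the hg19 genome were used; the read counter, its strand setting and the annotation release are not given in the sources used here. The deposited counts are whole numbers of reads per gene, not normalized by the authors, for 57773 genes, of which 24653 had no count in any library. The authors' deposited tables of each siRNA against control hold log2 fold changes and adjusted p-values, which were read only for comparison.

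Counts were fitted with edgeR 4.0.16 in R 4.3.3 (TMM scaling, filterByExpr, robust quasi-likelihood), in 1 fit of all 12 libraries with 9 residual degrees of freedom. Of the genes, 17532 were tested, and adjusted p-values cover all of them. SE is the absolute log2 fold change divided by the square root of the F statistic. The totals of 41.6 M to 71.3 M counts leave little counting error except for genes of a few CPM, and p-values measure the spread between these libraries, which are labelled as biological replicates. Log2 ratios of gene pairs were taken of counts plus 0.5. Exon lengths are unions of exons in GENCODE release 29 (GRCh38), found for 45 of 46 members, PSMB3 excepted. Promoter windows came from RefSeq.

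Genes named with values by library were the immunoproteasome genes, the constitutive catalytic subunits and, in each comparison and role group, the 2 called genes with the smallest p; for the further lists, the 2 called genes with the smallest p per comparison were named. Values of some genes of these lists are not reported here. Members not named by that rule are given in brief, chosen after their values were seen. The members and lists were chosen with earlier results of these data known. Alternatives were DESeq2 1.42.0, RLE scaling, library totals, no filter or a filter of 1 CPM in 4 libraries, only the compared groups in the fit, a replicate block, control replicates 1 and 2 or 3 and 4 alone, and each library left out. The code was tested on simulated data.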

Additional observations from a re-analysis of the deposited data

Results flagged for a closer look

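In 8 of 90 groups of 4 libraries (27 genes and 3 ratios in 3 groups), 1 library lay so far from the other 3 that the gap to its neighbour, divided by the range of the group, passed Dixon's critical value; chance alone gives about 1 in 20. Of these, 6 were siGOLM1-2 replicate 4 as the highest of its group. In that library PSMB5 held 156.0 CPM against 129.8 to 133.9 in the others (gap over range 0.845), PSMB6 178.3 against 141.8 to 147.6 (0.843) and PSMB7 190.5 against 131.8 to 140.4 (0.854). PSMB8 held 50.1 CPM against 37.7 to 39.1 (0.886), PSME2 152.2 against 125.8 to 127.8 (0.925) and PSMC3 127.4 against 107.5 to 110.8 (0.831).

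Without siGOLM1-2 replicate 4, 4 members were called higher and 20 lower with siGOLM1-2 against control, in place of 5 and 19, and 23 were called both ways. PSMB8 (0.69) and PSME2 (0.43) were still called, while PSMB9 (0.59, edgeR adjusted p = 0.0509) was not. Between the siRNAs, 9 were called higher and 15 lower without it, in place of 9 and 12.

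PSMC1 in siGOLM1-1 replicate 2 held 111.2 CPM against 98.9 to 101.0 in the others (0.831). PSME3 in control replicate 4 was the lowest of its group at 270.5 CPM against 287.2 to 289.7 (0.869).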

How the results depend on the processing

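The 3 ratios kept their direction in all 111 alternatives run. Those with a replicate block are among the 111, equal the unblocked values by construction and could not change direction. The ratios kept their side of the threshold with no count added and with the summed constitutive subunits as denominator, but not with each library left out. Without any 1 control library, PSMB8 to PSMB5 with siGOLM1-1 was 0.51 to 0.55 and not called (exact permutation adjusted p = 0.0735; 0.47 to 0.61 over all 8 libraries left out in turn). Without any 1 siGOLM1-2 library, the difference between the siRNAs was 0.26 to 0.33 and not called (adjusted p = 0.0643 by the same exact test; 0.22 to 0.35 over all 8). In both cases the groups still did not overlap, and the unadjusted exact permutation p moved in a coarse step from 0.0286 to 0.0571. PSMB9 to PSMB6 with siGOLM1-1 ran from -0.55, called without siGOLM1-1 replicate 2, to -0.24. The other 6 ratio comparisons kept their call in each omission. Against control replicates 1 and 2 or 3 and 4 alone, only values were computed, since the exact permutation test of 4 against 2 libraries cannot go below p = 0.0667. Of 75 calls of single genes, 56 were kept in every alternative and 19 were lost in at least 1. The members called higher with siGOLM1-1 numbered 7. They numbered 4 against control replicates 1 and 2 alone, 3 against control replicates 3 and 4 alone, and 3 to 8 with 1 library left out (4 without control replicate 1 or control replicate 2, 3 without siGOLM1-1 replicate 2). The counts by class were recomputed as alternatives chosen after seeing the data. Immunoproteasome members called higher with siGOLM1-1 numbered 1 against control replicates 3 and 4 alone and 1 to 3 with 1 library left out. Cap members called lower numbered 7 to 13 with siGOLM1-1 and 9 to 11 with siGOLM1-2 over all alternatives. Library totals as scaling gave 10 members higher with siGOLM1-2 against control, and 14 higher and 7 lower against siGOLM1-1. The same scaling shifts all genes, by 0.12 in place of -0.01 at the median between the siRNAs.

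Values that were not called changed sign with library totals for PSMB5 with siGOLM1-2 (0.0391), PSMB7 between the siRNAs (0.0533) and PSME1 between the siRNAs (0.0056). With 1 library left out, PSMB7 with siGOLM1-2 ran from -0.107 (without siGOLM1-2 replicate 4) to 0.0862, and PSMB9 with siGOLM1-1 from -0.393 to 0.0238 (without siGOLM1-1 replicate 1). The cause of these changes was not tested.

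Replicate numbers are shared by the groups. The deviations of same-numbered libraries had correlations from -0.19 to 0.34, mixed in sign, and the libraries were not taken as pairs. With a replicate block, 7 members were higher and 15 lower with siGOLM1-1, 5 and 18 with siGOLM1-2, and 9 and 12 between the siRNAs; the ratio differences under the block equal the unblocked ones by construction (PSMB8 to PSMB5 0.53, 0.83 and 0.30), which says nothing of their stability. The siGOLM1-1 libraries of replicates 1, 3 and 4 correlated best with the control library of their own number (0.34, 0.09 and 0.19). Replicate 1 matched its own number best in each pair of groups. The siGOLM1-2 libraries of replicates 2, 3 and 4 did not do so with either other group. PSMA2, PSMB10, PSMD9, PSMA6 and PSMB9 had the fewest counts of the members (2242 to 5058 over all libraries); a limit by depth was not tested.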
